A study of Mus musculus with 4 samples.

Results

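Among the 145453 distal regions listed for mouse mammary epithelial nuclei, 2457 (1.69%) had chromatin that was open in adult basal nuclei and much less open in the other main epithelial groups. They are called the adult basal regions here. Each is 1000 bases long and lies away from the promoter regions, which the authors listed separately. A region was chosen when the pooled adult basal nuclei had at least 10 CPM (reads of a region per 1000000 distal reads of the group) and at least 3 times the CPM of each of 4 other groups, with 0.5 CPM added before each ratio. Of the 27793 distal regions that reached 10 CPM in adult basal nuclei, 8.84% also met the ratios. The regions were thus selected on their measured levels in these 5 groups, and those levels are given below as a description, with no test.

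The assay was single-nucleus ATAC-seq, in which the Tn5 transposase cuts accessible DNA and leaves barcodes that tie each read to a nucleus. Wild-type CD1 mice gave 2 fetal libraries from embryonic day 18 and 2 adult libraries from 8 weeks of age. Each fetal library used 16 tagmentation wells and each adult library 32, a difference that cannot be told apart from stage. All 4 libraries came from mammary gland cells sorted as EpCAM+ and Lin-, so all groups share an epithelial gate, and the labels give no treatment and no transgene. The authors' table assigns the listed nuclei to 14 classes, and the groups follow those classes, not the library: adult basal is classes 1 and 8 (1060 nuclei, 2318194 distal reads), adult luminal progenitor classes 3 and 7 (4058189 reads), adult mature luminal classes 2 and 11 (5867946 reads), fetal luminal classes 5 and 9 (5492647 reads), and fetal basal classes 4 and 12 (2809530 reads). Of the adult basal nuclei, 335 came from adult replicate 1, 715 from adult replicate 2, and 10 from the fetal libraries. Nothing in the labels says how many animals made up a library. No barcode in the deposited nucleus lists was shared between libraries (0 in each pair).

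Basal cells form the outer layer of the mammary ducts, next to the basement membrane. They carry keratins 5 and 14 and the transcription factor p63, and many of them are myoepithelial: they hold smooth muscle actin and myosin and contract in response to oxytocin to move milk. Distal accessible regions include enhancers, where transcription factors bind and from which a gene can be regulated over long distances, and their pattern is usually more cell-type-specific than that of promoters.

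Of 28 genes in a list of basal and myoepithelial markers, 20 had their highest level of the 5 groups in adult basal nuclei, as did 1 of 13 luminal progenitor, 0 of 12 mature luminal and 0 of 7 other luminal genes. So did 4 of 10 fibroblast, 2 of 5 endothelial, 1 of 5 immune and 0 of 7 pericyte genes. Over the gene body and 2 kb on each side, Krt5 had 62.6 RPM (reads per 1000000 reads of the group, distal or not) in adult basal nuclei, 19.1 in fetal basal nuclei, and at most 7.60 in the 3 luminal groups. Krt14 had 70.4 RPM in adult basal nuclei and 44.3 in fetal basal nuclei, and Trp63, which encodes p63, had 220.3 and 156.8. Krt8, a luminal keratin, went the other way, with 41.7 RPM in adult basal nuclei and 169.2 in adult luminal progenitors. The other 8 basal-list genes were highest in another group: Igfbp2, Nrg1, Tagln, Itgb4 and Tcf4 in fetal basal nuclei, Itga6 and Myocd in mature luminal nuclei and Id4 in fetal luminal nuclei. Nrg1 had 609 RPM in adult basal and 770 in fetal basal nuclei, and Myocd had 26.1 in adult basal and 53.4 in mature luminal nuclei.

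Sequence is shown for regions that hold a RefSeq transcription start, because only there did the reference used give bases. A whole start window (250 bases before a start to 50 after it, GRCm38.p6) fell inside 32 of the 2457 regions and inside 2489 of all distal regions. The 250 bases before 5 such starts are printed 5′ to 3′ on the strand of the gene, with capitals marking matches on either strand to the AP-1 site TGANTCA, a p53-family pattern of CANG and CNTG with 6 bases between them, the TEAD site ACATTCC, the SOX site AACAATG, the RUNX site TGTGGTT and the SRF CArG box. The first 4 are shown because they hold such matches and the fifth, the highest protein-coding one in adult basal nuclei, because it holds none.
Gm40436, chr12:70590336-70590585, plus strand: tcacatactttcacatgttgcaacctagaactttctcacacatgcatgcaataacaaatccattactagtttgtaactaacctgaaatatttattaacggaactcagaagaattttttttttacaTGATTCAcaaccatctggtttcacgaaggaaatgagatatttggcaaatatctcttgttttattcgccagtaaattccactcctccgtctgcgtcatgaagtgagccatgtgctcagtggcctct
Gm31493, chr1:160025764-160026013, minus strand: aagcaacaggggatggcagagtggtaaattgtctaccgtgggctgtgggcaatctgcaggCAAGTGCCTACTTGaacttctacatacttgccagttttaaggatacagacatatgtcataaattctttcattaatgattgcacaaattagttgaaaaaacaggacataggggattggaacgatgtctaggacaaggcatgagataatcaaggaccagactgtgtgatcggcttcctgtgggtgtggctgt
Serpinb10, chr1:107528753-107529002, plus strand: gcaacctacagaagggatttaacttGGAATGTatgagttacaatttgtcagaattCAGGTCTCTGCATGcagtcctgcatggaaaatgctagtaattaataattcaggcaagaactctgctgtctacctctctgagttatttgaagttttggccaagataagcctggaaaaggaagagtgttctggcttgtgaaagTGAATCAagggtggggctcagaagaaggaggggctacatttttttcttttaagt
0610040F04Rik, chr6:108623168-108623417, minus strand: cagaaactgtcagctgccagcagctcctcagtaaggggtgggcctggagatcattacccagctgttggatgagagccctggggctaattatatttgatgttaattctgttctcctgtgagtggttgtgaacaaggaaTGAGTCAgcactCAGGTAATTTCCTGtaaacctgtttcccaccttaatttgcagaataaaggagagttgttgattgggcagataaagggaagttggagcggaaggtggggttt
Ppfibp2, chr7:107606594-107606843, plus strand: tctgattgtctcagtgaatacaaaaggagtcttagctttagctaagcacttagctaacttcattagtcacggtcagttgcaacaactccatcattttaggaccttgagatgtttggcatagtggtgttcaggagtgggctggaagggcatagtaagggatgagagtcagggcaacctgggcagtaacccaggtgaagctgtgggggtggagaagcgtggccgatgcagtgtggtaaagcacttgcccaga

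The region around the Serpinb10 start had 24.2 CPM in adult basal nuclei and at most 3.56 CPM in another group, and its window held an AP-1, a TEAD and a p53-family match. The Gm31493 region, with the p53-family match alone of those marked, had 33.2 CPM in adult basal nuclei and none in fetal basal nuclei, where its highest other group was at 2.46 CPM. The Gm40436 region had 40.1 CPM against at most 9.03. Over the 250 bases before the start, with 1 window taken per region (the first by position), the AP-1 site was found for 15.6% of the 32 adult basal regions with a start, for 11.6% of the 2489 distal regions with one and in 6.75% of all 32851 RefSeq start windows. The p53-family pattern was in 18.8%, 8.08% and 6.82% of the 3 sets, and the GATA pattern AGATAA in 25%, 8.88% and 9.99%. These 3 were picked after their shares were seen. Of 18 patterns searched, 9 had a higher share in the adult basal regions than in the distal regions and 9 a lower one. The E-box CAGGTG was in 25%, 19.0% and 17.2% and the ETS site AGGAAGT in 6.25%, 8.72% and 7.69%. No match among the 32 was found for 8 patterns: FOX (TGTTTAC), STAT (TTCCNGGAA), TCF/LEF (ATCAAAG), MEF2, NFI, steroid receptor, CTCF and a stricter form of the p53-family pattern. The first share of each pattern is over 32 regions, with 5, 6 and 8 matches for AP-1, p53 family and GATA, and the shares describe starts inside distal regions, not the 2457 regions as a whole.

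In class 1, adult basal nuclei, the regions took 5.79% of distal reads in adult replicate 1 (95% exact binomial interval 5.72 to 5.87) and 6.08% in adult replicate 2 (6.03 to 6.13). In class 8 they took 5.28% and 5.34%. Of the other classes that the choice used, fetal basal class 4 was highest, with 1.10% in both fetal libraries, and classes 6 and 14, outside the choice, lay above it at 1.90% to 2.44%. The share was lower in fetal basal class 12, with 0.678% and 0.699%. Class 3, adult luminal progenitors, had 0.793% and 0.853%, above the other luminal classes, and class 2, mature luminal nuclei, had the lowest shares at 0.283% and 0.320%. Classes 12 and 3 lay near each other, and the 2 libraries of a stage differed little within a class. The intervals treat each read as independent and leave out the spread between nuclei and between libraries. PCR copies of a molecule were not told apart here, so the intervals can be too narrow even for counting error.

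**Figure D1:**
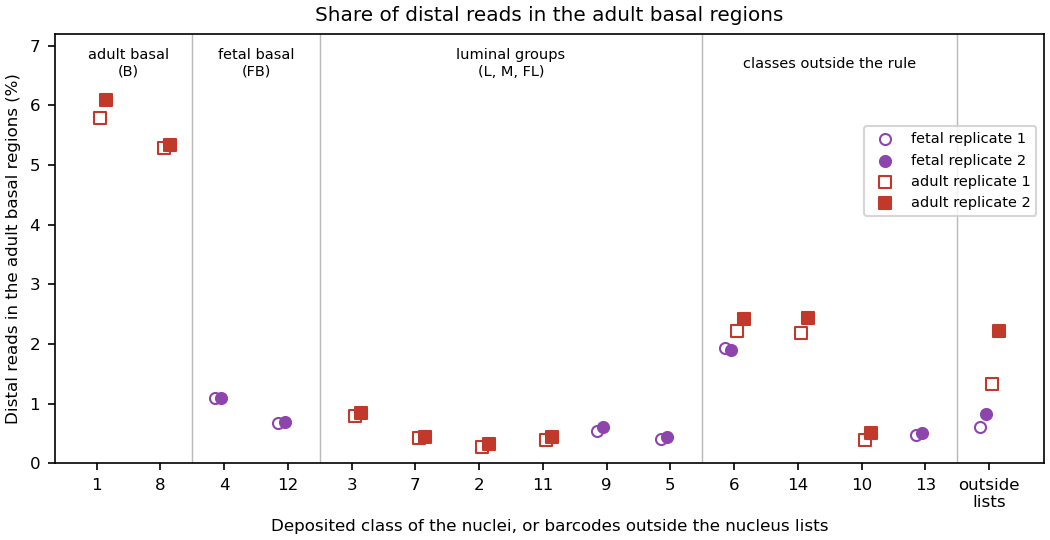
Share of distal reads (%) that fall in the 2457 adult basal regions, by deposited class (x axis) and library (points, shown where a class had at least 20 nuclei in the library), with the barcodes outside the nucleus lists at the right. Classes 1 and 8 sit between 5.28% and 6.08%, classes 6 and 14 between 1.90% and 2.44%, and the classes of the other 4 groups at or below 1.10%.

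Per region, the adult basal level was modest for most and high for a few. The number of reads from adult basal nuclei was 24 at the lowest, 42 at the median and 311 at the highest, which is 10.4, 18.1 and 134.2 CPM. The median over the regions was 18.7 CPM in adult replicate 1 and 18.6 CPM in adult replicate 2, compared with 3.01 and 2.81 CPM in fetal basal nuclei of the 2 fetal libraries and 1.00 and 1.95 CPM in adult luminal progenitors. Over all distal regions the medians were 2.88 and 2.48 CPM in adult basal nuclei, 3.01 and 3.74 in fetal basal nuclei and 2.51 and 2.93 in luminal progenitors. Both adult basal library values lay above all 8 library values of the other groups in 2360 regions (96.1%), against 7.51% of all distal regions, a contrast the choice itself used. Across the 2457 regions the log2 CPM of the 2 adult libraries correlated with a Pearson r of 0.523. This is across regions of one set, each with few reads (a median of 13 in adult replicate 1 and 30 in adult replicate 2), and regions are not independent replicates.

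Among the 4 groups of the choice, fetal basal nuclei were most often the next highest. They were so in 1355 regions (55.1%), followed by adult luminal progenitors in 547, fetal luminal nuclei in 336 and adult mature luminal nuclei in 219. The median ratio of adult basal to fetal basal was 5.56, and it was 9.19 to luminal progenitors, 9.84 to fetal luminal nuclei and 16.0 to mature luminal nuclei. Without the requirement against fetal basal nuclei the count would be 5131 regions, and without that against luminal progenitors it would be 3239. Leaving out mature luminal or fetal luminal nuclei would give 2847 and 2618 regions. The fetal basal requirement thus removed more regions than each of the other 3.

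The thresholds cut through a continuous range. The smallest ratio to the next group ran from 3 upward with a median of 4.53 and a maximum of 28.03, and 918 regions (37.4%) had a ratio under 4 while 185 had a ratio of at least 10. Just inside the level threshold were regions with 24 adult basal reads (10.4 CPM), such as chr1:52789359-52790358, and just outside were regions with 23 reads (9.92 CPM), such as chr1:45587243-45588242. At the ratio threshold, chr1:158852803-158853802 had 16.0 CPM against 4.98 in fetal basal nuclei and was kept, and chr10:18874213-18875212 had 17.3 CPM against 5.42 in luminal progenitors and was not. A further 829 regions reached the ratio with 5 to 10 CPM, and 2375 reached 10 CPM with a ratio of 2 to 3.

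The 10 highest regions in adult basal nuclei had at least 94.0 CPM there. The highest of all, chr7:38189031-38190030 inside the span of 1600014C10Rik, had 139.5 and 132.4 CPM in adult basal nuclei of the 2 adult libraries. It had 45.1 and 30.9 CPM in fetal basal nuclei, 3.01 and 12.2 in luminal progenitors and at most 5.62 in a library of fetal luminal nuclei. The 2 fetal basal values lay far above the luminal ones and far below both adult basal values. The region inside Tns3, which encodes a tensin of focal adhesions, had 136.6 and 118.2 CPM in adult basal nuclei and 46.6 and 20.6 in fetal basal nuclei. The region 9.01 kb from Synpo, which encodes an actin-associated protein (chr18:60668682-60669681), had 96.3 and 128.7 CPM, compared with 10.5 and 17.8 in fetal basal nuclei and 23.1 and 7.31 in luminal progenitors. The other 7 of the 10 highest lay in or nearest to Lbh, Gtf2f2, Cotl1, Prdm1 (a transcriptional repressor), Nmnat3, Cxcl12 (a chemokine) and Klf13 (a transcription factor), at 94.0 to 119.5 CPM. In 9 of the 10 the next group was fetal basal, and for Cotl1 it was luminal progenitors at 28.6 CPM.

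A different set of regions had the highest ratios. Among the 222 regions with at least 100 adult basal reads, the highest ratio, 26.5, was inside Ism1, which encodes a secreted protein (chr2:139738598-139739597). This region had 46.0 and 52.6 CPM in adult basal nuclei, 3.01 and 0.936 in fetal basal nuclei, and 1 and 0 in luminal progenitors, with no read in mature luminal or fetal luminal nuclei. It had 26.9 CPM in class 6, a class outside the choice. The other 9 had ratios of 12.6 to 17.2 and lay in or nearest to Cdk15, Bzw2, Phactr2, Tbx19, Riok1, Nrg2, Enox1, Trap1 and Camk2g. The region inside Enox1 was the highest of the 10, with 94.9 and 81.1 CPM in adult basal nuclei and 3.01 and 7.02 in fetal basal nuclei. Outside the choice it had 39.3 CPM in class 6 and 55.99 in class 14, far above its fetal basal values. Over the 10 highest ratios, class 6 had 0 to 39.3 CPM and class 14 had 8.84 to 55.99. Over the 10 highest levels the same classes had 0 to 66.1 CPM, the highest in the Cxcl12 region, and 26.5 to 64.8. No region was among both the 10 highest levels and the 10 highest ratios.

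Of 28 basal and myoepithelial genes in a list chosen with earlier results of these data known, 19 had at least 1 adult basal region inside the gene span or nearer to it than to any other protein-coding gene. These genes held 41 such regions of their 591 distal regions (6.94%, against 1.69% of all distal regions). None of the 152 distal regions of 13 luminal progenitor genes was one, and 1 of 197 was for 12 mature luminal genes. For 7 other luminal genes the count was 1 of 159, a region 660.0 kb from Gata3.

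Among the keratins, both distal regions of Krt17, a keratin of basal cells, were adult basal regions, whereas none of 6 for Krt5 and none of 8 for Krt14 was one. The higher one, 1.09 kb from the gene (chr11:100254626-100255625), had 92.0 and 92.2 CPM in the 2 adult libraries of adult basal nuclei. It had 27.1 and 15.4 CPM in fetal basal nuclei and 15.0 and 15.8 in fetal luminal nuclei, so this region was more open in fetal nuclei of both kinds than in adult luminal nuclei (4.88 to 7.69 CPM). For the transcription factors, 3 of 35 distal regions of Trp63 were adult basal regions, the highest at 41.7 and 50.7 CPM against 3.01 and 4.68 in fetal basal nuclei and 5.01 and 7.80 in luminal progenitors. Its next group was luminal progenitors, not fetal basal nuclei. The single region of Myocd, a coactivator of smooth muscle genes, lay 173.6 kb from the gene and had 17.3 and 20.4 CPM, with no fetal basal and no luminal progenitor read.

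Of the 6 contractile genes in the list, Tagln (0 of 1 distal region) and Tpm2 (0 of 2) had no adult basal region. Acta2, smooth muscle actin, had 2 of 9, the higher at 35.9 and 39.6 CPM against 1.5 and 13.1 in fetal basal nuclei. Myh11, smooth muscle myosin, had 3 of 8, the highest at 30.2 and 14.9 CPM against 0 and 4.21. Mylk, the kinase that activates that myosin, had 1 of 38, at 37.4 and 19.2 CPM against 6.02 and 7.49. The single Cnn1 region, for calponin, had 5.75 and 13.6 CPM, and its level in adult replicate 1 rested on few reads. The 2 adult libraries differed by more than 1.5 times in the Myh11, Mylk and Cnn1 regions. In all of them the lower adult basal value was still above every library value of the other 4 groups. The choice itself used this contrast, which held in 96.1% of the adult basal regions and 7.51% of all distal regions. For Cnn1 that value was 5.75 CPM from 4 reads, and mature luminal nuclei of adult replicate 1 had 2.03 CPM from 5. Outside the choice, the Myh11 region had 14.5 CPM in class 6 and 5.89 in class 14. The Mylk region had 10.3 and 17.7 CPM there, and the Cnn1 region had no read in either class.

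Among the receptors, ligands and adhesion genes, Oxtr, the oxytocin receptor, stood out with 7 of 11 distal regions. Nrg1, a ligand of ErbB receptors, had 4 of 101, the highest inside the gene at 54.6 and 56.3 CPM against 10.5 and 6.09 in fetal basal nuclei. Egfr, a receptor of that family, had 3 of 36, the highest at 11.5 and 29.7 CPM against 8.02 and 3.90 in luminal progenitors. Lamb3, a laminin chain of the basement membrane, had 1 of 10, at 44.6 and 58.8 CPM against 4.51 and 14.04 in fetal basal nuclei. Col17a1, Lama3, Cdh3, Itga6, Lgr6, Id4, Sparc and Tcf4 had 1 or 2 each, with the highest region at 12.5 to 27.2 CPM. Outside the choice, the highest regions of these last genes, Col17a1 to Tcf4, had 0 to 16.5 CPM in class 6 and 0 to 20.6 in class 14. The class 6 value of Sparc was 16.5 CPM, against 20.1 and 17.3 in adult basal nuclei. That of Lama3 was 14.5 CPM, against 11.5 and 20.4. In class 14 the Lamb3 region had 47.2 CPM, above its adult basal value in adult replicate 1, and the Nrg1 region had 26.5.

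**Figure D2:**
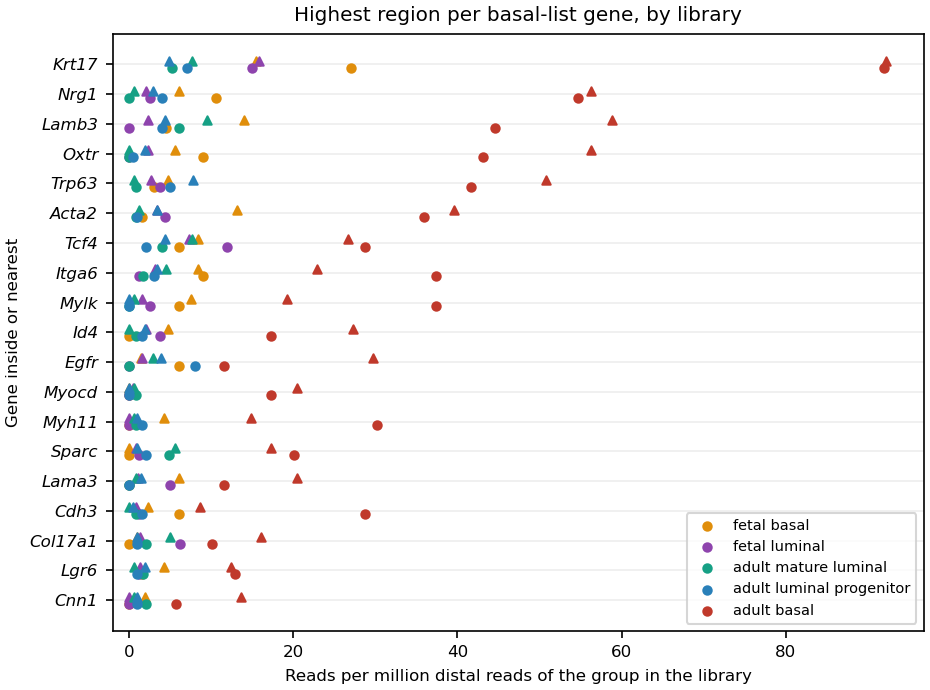
CPM (x axis) of the highest adult basal region of each of 19 basal-list genes (y axis), by group (colour) and library (circle, replicate 1; triangle, replicate 2). The Krt17 region is highest at 92.0 and 92.2 CPM, and in the Cdh3 region the lower adult basal value is 8.66 CPM and the highest other value 6.02 CPM.

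Part of the adult basal regions lay close to each other. Of the 2457, 349 (14.2%) were next to another one in the list of distal regions, whereas 3.29% of all distal regions had one beside them. Joining regions at most 50 kb apart gave 1939 runs, of which 1578 were a single region and 101 had at least 3 regions and together held 359. The longest run by count had 10 of the 30 distal regions within 142.2 kb around Cxcl14, which encodes a chemokine, and Slc25a48. Their CPM in adult basal nuclei ranged from 10.4 to 44.9, and the 10 summed to 257.5, against 34.2 in fetal basal nuclei, 20.6 in fetal luminal nuclei, 17.2 in luminal progenitors and 5.79 in mature luminal nuclei. The next run had 9 of 17 distal regions within 109.0 kb around Oxtr and Rad18, with sums of 259.7 in adult basal nuclei and 36.2, 18.1, 21.1 and 32.7 in luminal progenitors, mature luminal, fetal luminal and fetal basal nuclei.

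The Oxtr run was uneven. Its highest region, 1.63 kb from the gene span (chr6:112492168-112493167), had 43.1 and 56.3 CPM in adult basal nuclei, 9.02 and 5.62 in fetal basal nuclei, 0.501 and 1.95 in luminal progenitors and no read in mature luminal nuclei. A region inside the gene (chr6:112482574-112483573) had 38.8 CPM in adult basal nuclei but also 11.6 in luminal progenitors and 12.3 in mature luminal nuclei. Open regions also lay farther out, and those 62.1, 102.5 and 105.6 kb from the centre of the gene span had 44.9, 31.1 and 37.1 CPM. Between them, chr6:112557105-112558104 was highest in fetal basal nuclei (20.6 CPM, against 8.20 in adult basal nuclei).

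**Figure D3:**
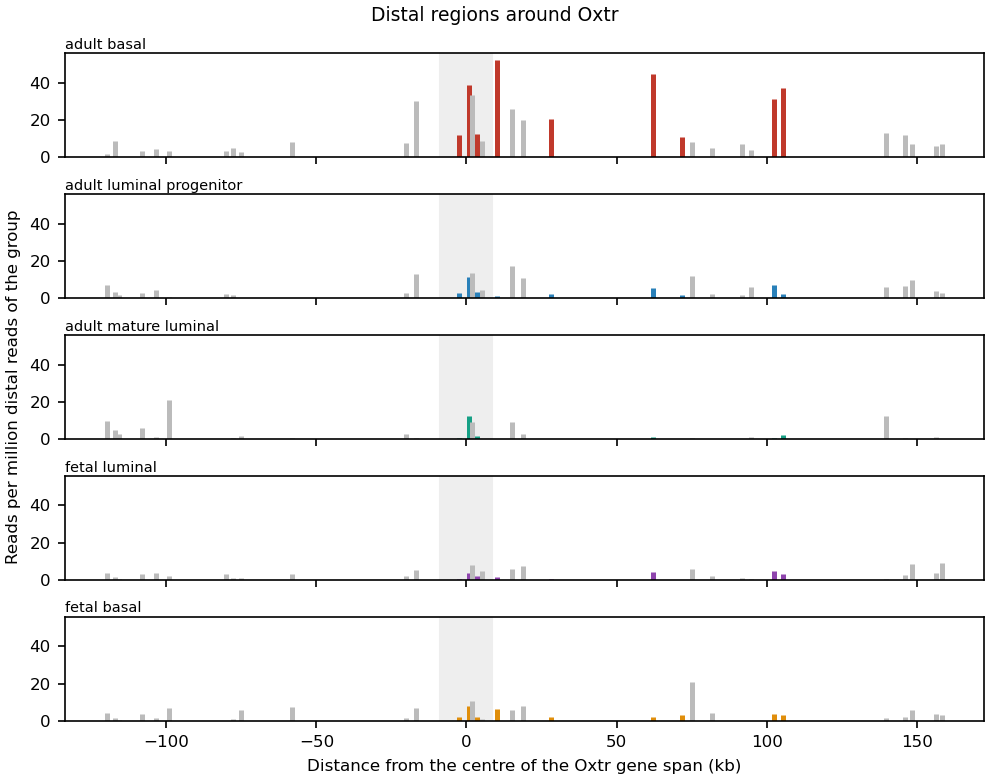
CPM of every distal region within 150 kb of the Oxtr gene span (y axis) against its distance from the centre of the span in kb (x axis), 1 panel per group, with adult basal regions in colour, other distal regions in grey and the gene span shaded. The adult basal regions reach 52.2 CPM in the top panel and at most 12.3 CPM in the other 4.

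By number of regions inside or nearest, the first genes were Fhod3, a formin that assembles actin, with 12 of 34 distal regions, and Slit3, a guidance ligand, with 9 of 60. Cxcl14 had 8 of 19, Xylt1 8 of 59 and Oxtr 7 of 11. Genes with 6 each included Jag1, a Notch ligand, Cxcl12, Fndc3b, Ntrk3, Mical2 and Sema6d. All 12 Fhod3 regions and all 9 Slit3 regions lay inside the gene, while the 6 nearest to Cdh5 lay outside it, up to 566.5 kb away. In all, 1680 protein-coding genes had at least 1 region and 1214 had exactly 1. The nearest gene is a statement of position and was not tested as the regulated gene.

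The adult basal regions lay farther from promoters than other distal regions. Their median distance to the nearest listed promoter region was 58.7 kb, against 42.2 kb for all distal regions and 39.8 kb for the other distal regions with at least 10 CPM in adult basal nuclei. Within 10 kb of a promoter region were 10.9% of them, against 17.2% of all distal regions. Inside a protein-coding gene span lay 54.2% of them and 53.4% of all distal regions, so the share inside genes was close to that of the whole list. By chromosome their share of distal regions ran from 1.12% on X to 2.00% on 18, with none among 14 regions on Y.

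The authors' co-accessibility scores, which rise when 2 regions are open in the same nuclei, were high within the set. Of 2401 scored pairs of adult basal regions, 56.5% had a score of at least 0.1, against 2.51% of all pairs of distal regions and 5.50% of pairs of an adult basal region with another distal region. Beyond 200 kb the share was still 48.4%, against 1.88% of all distal pairs at that distance. The scores come from the same nuclei that chose the regions, so these shares describe the set and test nothing. A promoter region was linked at 0.1 or more to 679 adult basal regions (27.6%), above the 12% of all distal regions but below the 32.2% of the other distal regions with at least 10 CPM in adult basal nuclei. Among promoters whose gene could be named, that of Cxcl14 had links to 11 adult basal regions, Enpp1 to 8, and Slit3, Fbn1, Moxd1, Cav3 and Irs2 to 6 each. Of 9892 genes with a named promoter region, 314 (3.17%) had such a link. Of the 28 basal-list genes, 10 had a named promoter region and 6 of these a link: Col17a1 and Egfr with 5 links each, Sparc with 3, Krt14 and Acta2 with 2 each and Id4 with 1. The strongest Krt14 link (score 0.421) was to the region 1.09 kb from Krt17.

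Regions of other cell types were looked for as well. Of 10 fibroblast genes, 3 had adult basal regions (7 of 120 distal regions, or 5.83%, against 1.69% of all distal regions and 6.94% for the basal list): Col1a2, a collagen chain, Dcn, a proteoglycan, and Fbn1, a microfibril protein. Of 5 endothelial genes 2 had them (7 of 102, or 6.86%), 6 of which were the distant Cdh5 regions, and of 7 pericyte genes 1 (1 of 52, or 1.92%). None of 37 distal regions of immune genes was one. Summed over gene bodies, the fibroblast list stood at 306.3 RPM in adult basal nuclei, between 179.8 and 274.4 in the other 4 groups and at 1131 in class 6. Fbn1 alone gave 121.8 RPM of the adult basal sum, and it had 34.5 to 65.4 in the other 4 groups. Of the 10 genes, 4 were highest of the 5 groups in adult basal nuclei. The part of other cell types in the adult basal regions was not tested.

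The deposited motif scores of the nuclei are chromVAR deviation scores over all accessible regions holding a motif and not over these regions alone. Only a chosen list of 25 score columns was read, so counts over them do not speak for all deposited scores. The classes were made from the same nuclei, so the scores are a description and no test. Of these 25, 5 had both adult basal library means above all 8 library means of the other groups: Trp63, Trp73, Tead4, Runx1 and Srf. The Trp63 score, for the motif of p63, averaged 3.48 and 3.33 in adult basal nuclei and 2.62 and 2.69 in fetal basal nuclei, and it was negative in the 3 luminal groups. The Trp73 score had the same order, with 3.37 and 3.31 against 3.03 and 3.06, and these 2 factors share a motif. Tead4, a partner of YAP, had 0.85 and 0.88, against at most 0.65 in another group. Runx1 had 0.52 and 0.59 in adult basal nuclei, against 0.25 and 0.40 in mature luminal nuclei, the highest other group. Class 14, outside the choice, also had 0.52. The Runx1 score was -0.80 and -0.79 in fetal basal nuclei, so for this score adult and fetal basal nuclei lay on opposite sides of 0. The Srf score, for a factor of smooth muscle genes, was 0.27 and 0.38 against 0.23 and 0.26 in fetal basal nuclei, a small gap. Fos, for AP-1, was higher in mature luminal nuclei (2.45 and 3.13) than in adult basal nuclei (0.38 and 0.13).

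Within adult basal nuclei, class 8 was slightly lower than class 1 over the regions, by about as much as over other regions past the same minimum. The median log2 ratio of class 8 to class 1 was -0.16 over the adult basal regions and -0.14 over the other 25336 distal regions with at least 10 CPM in adult basal nuclei. Class 1 was higher in both adult libraries in 820 of them (33.4%) and class 8 in 589 (24.0%). The other distal regions with at least 10 CPM gave 33.5% and 23.8%, and all distal regions, many with few reads, 13% and 16.1%. Both shares in the adult basal regions were thus close to those of the other regions past that minimum, whose levels were not matched.

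Classes that the choice did not use held part of the signal. Class 6 (213 nuclei), where the fibroblast list was highest and Krt5 had no read, put 1.93% and 1.90% of its fetal and 2.22% and 2.43% of its adult distal reads into the adult basal regions, by library, above fetal basal nuclei. At 10 CPM or more in class 6 were 679 of the regions (27.6%, against 20.2% of all distal regions), and 332 were at or above their adult basal level there. Class 14 (85 nuclei) had 2.19% and 2.44% in the adult libraries, with 984 regions (40.0%) at 10 CPM or more, against 23.7% of all distal regions. It also had 8.93% of its distal reads in the 6742 regions that the same thresholds give for mature luminal nuclei, where class 1 had 0.914% and class 2 had 15.9%. Classes 10 and 13 were low, at 0.451% and 0.494% of distal reads, and 2.81% and 5.74% of the regions reached 10 CPM there, against 18.3% and 22.6% of all distal regions. When the ratio of 3 was also asked against class 6, 1584 regions were left, and against classes 6, 10 and 14, 641. Class 6 had 483987 distal reads and class 14 had 339329, against 2318194 in adult basal nuclei. A few reads there can therefore break the ratio, and how far counting noise lowered these counts was not tested. By the choice, the 2457 regions are specific to adult basal nuclei against 4 groups and were not selected against every deposited class.

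At equal depth single nuclei separated along the same lines. The nuclei of the 5 groups are those whose pooled reads chose the regions, so their separation is a description and no test. With each nucleus thinned to 500 distal reads, adult basal nuclei had a median of 28 reads in the regions (5th to 95th percentile 16 to 40, 1045 nuclei, 15 left out as shallower). The unthinned median was 5.69% of distal reads. Fetal basal nuclei had a median of 4.5, luminal progenitors 2, fetal luminal nuclei 2 and mature luminal nuclei 1. At or above the adult basal 5th percentile of 16 were 9 of 1730 luminal progenitor nuclei, all in class 3, and none of the 2085 mature luminal, 1592 fetal luminal or 814 fetal basal nuclei. In class 6 the median was 10 and 35 of 213 nuclei reached 16, and in class 14 it was 12 and 26 of 85 did. How far barcodes that hold more than 1 nucleus bear on class 14 was not tested.

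**Figure D4:**
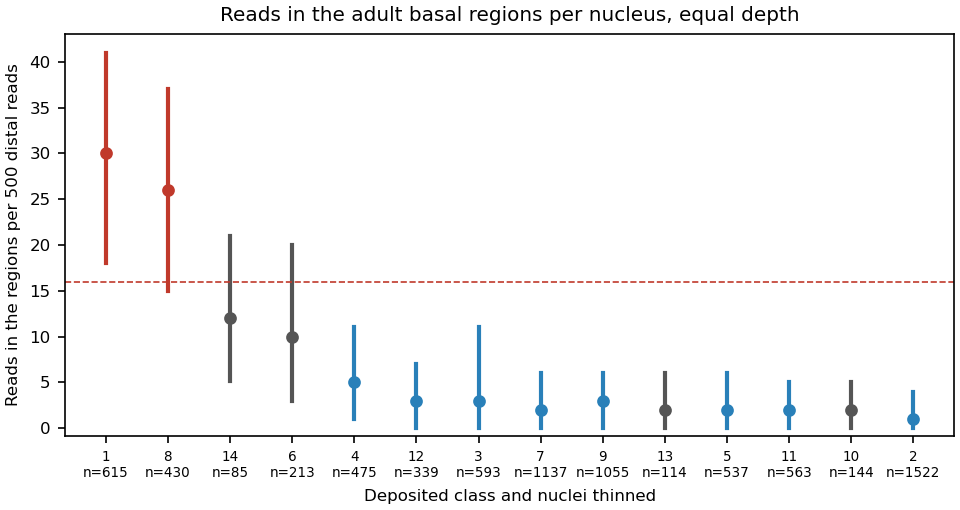
Reads in the adult basal regions per nucleus after thinning to 500 distal reads (y axis), by deposited class (x axis, with the number of nuclei). Points are medians, bars run from the 5th to the 95th percentile of nuclei, and the dashed line marks the 5th percentile of adult basal nuclei (16 reads). Red marks the adult basal classes, blue the classes of the other groups and grey the classes outside the choice.

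Nuclei of the other stage were found in 2 of the basal classes. The 10 fetal nuclei of class 8 had 1.56% of their distal reads in the regions (exact interval 1.27 to 1.88), from 0.162% to 2.84% per nucleus, and the 431 adult nuclei of that class had 5.32%. The 6 adult nuclei of fetal basal class 4 had 2.43% (2.11 to 2.78), from 1.79% to 3.72% per nucleus, and the 470 fetal nuclei of that class had 1.10%. In both of these classes the pooled share of the other stage's nuclei lay on the side of their own stage. By library, the 8 fetal nuclei of luminal class 3 were divided: they had 0.391% and 0.928%, below and above both adult values of that class (0.793% and 0.853%). The 19 adult nuclei of class 9 had 0.674% and 0.792%, against 0.537% and 0.609% in its fetal nuclei. Such nuclei are few, and nuclei of 1 library are not replicates. The exact intervals treat reads as independent and leave out the spread between nuclei. The fetal nuclei of class 8 had 514 to 1431 distal reads each, against a class median of 1762. The deepest of them held 37 of their 104 reads in the regions.

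Reads of barcodes outside the deposited nucleus lists played no part in choosing the regions. These barcodes held 13.1% and 12.4% of the reads of the adult libraries, and 5.73% and 4.69% of those of the fetal libraries. The adult basal regions took 1.32% and 2.22% of their distal reads in adult replicates 1 and 2, and 0.614% and 0.828% in fetal replicates 1 and 2. Both adult values lay above both fetal values, with means of 1.77% ± 0.635 (SD, n = 2) and 0.721% ± 0.151 (SD, n = 2). An exact two-sided permutation test gave p = 0.3333, the smallest value that 2 libraries against 2 allow. Adult replicate 2, with the higher value, also had more adult basal nuclei among its listed nuclei (25.5%, against 13.6% in adult replicate 1). Among listed nuclei the regions took 1.12% and 1.68% of distal reads in the adult libraries. In such pooled reads, more basal nuclei and more open regions per nucleus cannot be told apart.

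At a mean of at least 10 reads outside the lists per library, no adult basal region was called. Only 77 of the 2457 had a mean of at least 10 such reads per library and could be tested, and a region can pass this minimum through the adult libraries alone, so no count over the regions tested, here or under another minimum or set of libraries, supports a difference. With edgeR's quasi-likelihood test and Benjamini-Hochberg adjustment over 10335 distal regions, none of the 77 was called higher in adult, against 0% of all regions tested. None was called lower, against 0.0581% (6 regions). At an unadjusted p under 0.05 were 23 of the 77 and 1797 of all regions (17.4%), and DESeq2 called none of the 77 and 24 of all (0.232%). At a mean of 5 reads, edgeR called 10 of 486 adult basal regions higher in adult, and 1.52% of all regions tested. Without fetal replicate 1 it called 15 of 179 higher and 1 lower, and 4.41% of all higher. Without fetal replicate 2 it called 1 of 168 higher, and 2.1% of all. In both of these fits the lone fetal library is assumed to vary like the adult ones. Without adult replicates 1 and 2 in turn it called none of 52 and none of 8 higher, and 0% and 0.0673% of all. The region of Acta2 had 0 and 1 such reads in fetal replicates 1 and 2 and 18 and 21 in adult replicates 1 and 2, a log2 difference of 3.00 with a standard error of 1.30 (edgeR adjusted p = 0.246). The region inside 1600014C10Rik had 0 and 2 against 18 and 60 reads, a log2 difference of 3.09 with a standard error of 1.11 (edgeR adjusted p = 0.151). The region near Lbh had 6 and 8 against 12 and 33 reads, which relative to depth is 43.7 and 32.8 CPM in fetal and 14.5 and 39.97 in adult libraries, so the stages overlapped. Its fitted log2 difference was -0.48 with a standard error of 0.72 (edgeR adjusted p = 0.773).

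The reads within the regions formed a peak in every group. Read midpoints were densest about 100 bases to the right of the region centre: the median offset was 84 to 89 bases over the adult basal regions and 88 to 89 over all distal regions, by library. Relative to the flanks 375 to 500 bases from that point, the central 125 bases on each side were 4.64 times as dense in adult basal nuclei, 4.16 times in fetal basal nuclei, 3.97 in luminal progenitors, 3.62 in fetal luminal nuclei and 3.33 in mature luminal nuclei. Class 6, outside the choice, had 3.99 times. In this mean over all the regions, the groups in which the regions were lowest thus still had a peak of reads. The mean does not show a peak in each region: 469 of the 2457 had no read in mature luminal nuclei. The same ratio over all distal regions is not given here.

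**Figure D5:**
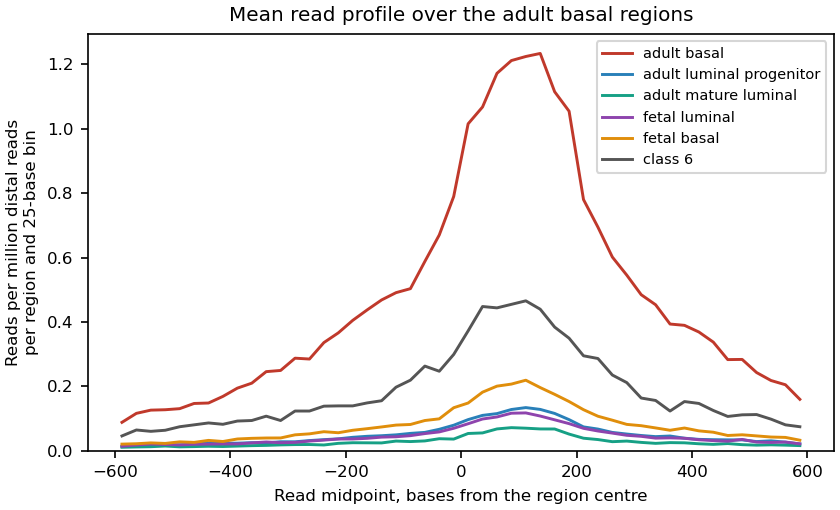
Mean density of read midpoints over the 2457 regions, in CPM per region and 25-base bin (y axis), against distance from the region centre in bases (x axis), for 5 groups and class 6. All curves are highest 87 to 137 bases from the centre, with adult basal nuclei at the top, then class 6 and then fetal basal nuclei.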

How the data were processed

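Per the submitters' processing notes, the authors used Bowtie2, MACS2 and bedtools with mm10. The deposited reads (163 to 200 bases) carry nucleus barcodes. They were counted in each region of the deposited lists when at least 1 base overlapped, giving counts per region, class and library. The deposited table gives a read count per nucleus, which equalled the count here for all nuclei, a class, and chromVAR deviation scores. The deposited co-accessibility scores are from Cicero. The libraries held 6394631 to 22037784 reads. The regions and gene lists were chosen with earlier results of these data known. Named are the 10 highest levels, the 10 highest ratios with at least 100 reads, the top region of each basal-list gene, the genes with most regions, and regions at the thresholds. Genes were assigned by RefSeq gene span, not start, because 17492 of 21900 protein-coding genes had a start in the table used, and this also limits the promoters that could be named. Reads outside the lists were tested with edgeR 4.0.16 (TMM, quasi-likelihood, mean of at least 10 reads), and with DESeq2 1.42.0 as an alternative. The edgeR fit was also run on simulated counts with a fixed spread, which gives no detection rate for these sparse reads. The edgeR and DESeq2 p-values set a stage difference against the estimated spread between libraries, with 2 libraries per stage in the main fit.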

Additional observations from a re-analysis of the deposited data

How the results depend on the processing

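The count of 2457 regions moved by over 1.5 times under 6 settings: 1073 at a minimum of 20 CPM, 4832 at a ratio of 2, 1539 at a ratio of 4, 736 with CPM over all reads of the listed nuclei (which lowers every CPM against the same minimum), 1584 with class 6 added and 641 with classes 6, 10 and 14 added. It was 1851 to 3286 under the other settings, and 2427 to 2964 without 1 library, where 69.3% to 91.5% of the regions were kept. The edgeR count of 6 distal regions for barcodes outside the lists was 24 with DESeq2, 533 at a mean of 5 reads (10 of 486 adult basal regions tested), 0 with no filter, 0 with scaling by total distal reads and 2 with barcodes under 500 reads, where no adult basal region could be tested. Without 1 library it ran from 0 to 949, in fits where the lone library of a stage is assumed to vary like the other stage's; the cause was not tested. With the replicate number as a block it was 12 (2 higher, 10 lower). Same-numbered libraries' deviations correlated at 0.01. With 2 libraries per stage this is 1 value over regions with few reads, so it cannot show whether they share a day or batch. The labels do not say so either. The adult minus fetal share of reads outside the lists, 1.05 percentage points, was 0.703 with barcodes under 500 reads, 1.08 by read midpoint and 0.604 to 1.502 without 1 library. The log2 ratio of class 8 to class 1 was -0.14 in adult replicate 1 and -0.15 in adult replicate 2. Shares in classes 6, 10, 13 and 14 moved by less than the spread between libraries when reads were counted by midpoint. A motif search of the central 500 bases was not run, as no genome was used here.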
